A study of Mus musculus with 21 samples.

Results

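Expression of 10 genes that sense microbial products or relay their signal was examined in hematopoietic stem cells (HSC) of mice: the Toll-like receptor genes Tlr1, Tlr2, Tlr4, Tlr6, Tlr7 and Tlr9, the co-receptor gene Cd14, and the adaptor genes Myd88, Ticam1 and Ticam2. The genes were taken by symbol, and all 10 of them stood among the 13380 genes listed in both deposited HSC tables. They had been chosen with their HSC values known. Their HSC values are therefore given as a description and carry no test. All animals were MMTV-PyMT mice, which carry the polyoma middle T oncogene under the mouse mammary tumour virus promoter and develop mammary tumours. HSC were sorted freshly from Sedentary mice at week 12 (3 libraries), from Physically active mice at week 12 (3 libraries), and at week 14 from sedentary mice that had received cells of a physically active mouse by transplantation (3 libraries). The transplant group thus differed from the others in week and in transplantation together. It also differed from the sedentary group in having received cells of an active mouse, and from the active group in having a sedentary host. These factors cannot be told apart. The strain background, the sorting gate, the cells transplanted and the cells the recipients kept are not given in the sources used here. The other 12 of the 21 libraries came from mammary tumours of sedentary and active mice at weeks 12 and 18.

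Toll-like receptors are membrane proteins that bind conserved microbial molecules and, once engaged, recruit adaptors that lead to NF-kB and interferon regulatory factor activation. TLR2 pairs with TLR1 or TLR6 at the cell surface to bind bacterial lipopeptides, TLR4 binds lipopolysaccharide handed over by CD14, and TLR7 and TLR9 bind single-stranded RNA and CpG DNA in endosomes. MyD88 serves nearly all of these receptors, whereas TRIF (Ticam1) and its bridging partner TRAM (Ticam2) serve TLR4 signalling from endosomes. Stem and progenitor cells of the bone marrow are known to carry several of these receptors and to produce more myeloid cells when these are engaged.

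Tlr1 and Tlr6 are neighbours on the minus strand of chromosome 5 (GRCm38), at 64924679 to 64933563 and 64952031 to 64960097, with 18467 bases and 0 coding genes between them. Tlr2 lies on chromosome 3 (83836272 to 83841767, minus strand), Tlr4 on chromosome 4 (66827584 to 66930284, plus strand), Tlr7 on chromosome X (167304929 to 167330558, minus strand) and Tlr9 on chromosome 9 (106222598 to 106226883, plus strand). Myd88 is also on chromosome 9 (119335934 to 119341411, minus strand), and Ticam1 is on chromosome 17 (56269319 to 56276786, minus strand). The transcripts of Tlr1 and Tlr6 shared 454 of their 50-base windows, which was 13.6% of those of Tlr1 and 12.3% of those of Tlr6, so reads from that stretch could be split between them and both counts are uncertain to that extent. Ticam2 shared 838 exon bases with Tmed7 on the same strand, and its counts are uncertain for the same reason. Myd88 shared 290 exon bases with Acaa1a on the opposite strand; the libraries were stranded, but whether counting used the strand is not given in the sources used here.

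RefSeq start-site windows of GRCm38.p6 were at hand for 6 of the 10 members, 8 windows in all, since Tlr1 and Tlr6 each had 2 listed starts. The 250 bases before a listed start are printed for 4 members: for Tlr1 and Tlr6, the neighbours with the largest differences between transplant and sedentary HSC, for Tlr9, which was high in active and not in transplant HSC, and for Myd88, whose level hardly differed between groups. They are written 5′ to 3′ on the gene's strand, with capitals marking each match to a searched motif.
Tlr1 (chr5:64933559-64933808, minus): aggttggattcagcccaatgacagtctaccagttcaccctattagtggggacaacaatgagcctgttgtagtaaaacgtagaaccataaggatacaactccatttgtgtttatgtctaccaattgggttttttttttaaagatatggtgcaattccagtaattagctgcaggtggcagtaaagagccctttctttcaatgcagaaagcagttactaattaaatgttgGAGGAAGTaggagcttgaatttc
Tlr6 (chr5:64959167-64959416, minus): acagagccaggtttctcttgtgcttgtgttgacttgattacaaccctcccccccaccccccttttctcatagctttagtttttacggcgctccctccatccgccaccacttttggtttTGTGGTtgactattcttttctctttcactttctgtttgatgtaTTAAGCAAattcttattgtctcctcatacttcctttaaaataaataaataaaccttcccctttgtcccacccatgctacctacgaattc
Tlr9 (chr9:106222348-106222597, plus): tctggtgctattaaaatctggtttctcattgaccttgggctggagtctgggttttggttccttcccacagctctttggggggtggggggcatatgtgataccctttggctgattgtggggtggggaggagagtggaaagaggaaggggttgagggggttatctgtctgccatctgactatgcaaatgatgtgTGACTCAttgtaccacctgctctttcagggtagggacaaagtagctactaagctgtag
Myd88 (chr9:119340019-119340268, minus): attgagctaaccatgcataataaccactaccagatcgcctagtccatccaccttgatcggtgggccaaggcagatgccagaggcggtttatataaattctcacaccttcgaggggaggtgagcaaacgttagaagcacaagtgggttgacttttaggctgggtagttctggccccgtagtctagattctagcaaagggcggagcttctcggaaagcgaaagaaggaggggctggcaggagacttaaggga
The motifs searched, on both strands, were GAGGAAGT for PU.1, TTGCNNAA for C/EBP, TGANTCA for AP-1, TGTGGT for RUNX and the NF-kB motif. Of 32851 mouse windows of this length, 2.44% held the PU.1 letters, 9.56% the C/EBP letters, 6.75% the AP-1 letters and 7.25% the NF-kB motif, and 4614 windows held the RUNX letters. The Tlr1 window held the PU.1 letters 16 to 23 bases before the start. The printed Tlr6 window lies within the annotated gene (64952031 to 64960097), not at its annotated start. It held a C/EBP match 82 to 89 bases and a RUNX match 127 to 132 bases before the listed start. For Tlr1 and Tlr6, the bases just after each listed start were not found unbroken in an annotated transcript of the gene. The Tlr9 window held an AP-1 match 52 to 58 bases before the start, and the Myd88 window held none of these letters. Of the windows not printed, that of Tlr2 matched the NF-kB motif, and those of Ticam1 and of the second listed starts of Tlr1 (64932700 to 64932949) and Tlr6 (64960049 to 64960298, at the annotated start of the gene) matched none. Tlr1 and Tlr6 shared no match among these motifs in the printed windows.

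HSC libraries held 16406889 to 72417315 recovered reads, and replicate 3 of each HSC group, whose library name has a letter, was the deepest (58500940 reads or more). The active library numbered 6 stands in both HSC tables, headed P3 (6) in the sedentary-active table and P2 (6) in the active-transplant table, with different values. Its recovered reads differed between the tables at 97.8% of the 13380 genes, against 4 genes each for the other two active libraries, so at most 1 of the 2 columns can be that library. Both are shown apart throughout. The column of the sedentary-active table lay nearest to transplant replicate 2 (root mean square log2 distance 0.58 over 12258 genes). The column of the active-transplant table lay about equally near to sedentary replicates 3 and 2 (0.446 and 0.448). All 10 listed HSC markers were detected, with a summed normalized count of 9869 to 11033 in sedentary and 9845 to 10637 in transplant HSC, mostly Kit. Hlf, a stem cell transcription factor, stood at 683 to 797 in sedentary and 305 to 390 in transplant HSC. Mecom (121 to 160 and 45.3 to 86.1) and Meis1 (1545 to 1623 and 789 to 1384) were also lower without overlap. Slamf1 was higher, at 47.4 to 51.1 and 101 to 299, so the even sum does not describe each marker. The labels call the 3 libraries of a group biological replicates.

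Values below are normalized read counts, that is, reads divided by 1 factor per library. All 10 HSC columns (9 libraries, the library numbered 6 in both versions) share 1 scale, except in values of other genes of the pathway. Those values are scaled within each comparison, so 1 library can have different values in different comparisons. Differences are of mean log2(normalized count + 1), with their standard error, and understate changes of low genes. Transplant HSC were compared with sedentary HSC first, since neither group involves the columns numbered 6. On these means 9 of the 10 genes were higher in transplant HSC, by up to 2.08 on the log2 scale for Tlr6, and Myd88 was lower by 0.15. The median difference of the 10 genes was 0.79, and that of all 13329 genes compared was 0. For 6 of the 10 genes every transplant library lay above every sedentary library, which 20.4% of all genes did; since the genes were chosen on these contrasts, nothing is read from that share.

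Among the lipopeptide receptors, Tlr6 had 58.9, 58.2 and 80.0 normalized counts in sedentary replicates 1 to 3 and 302.2, 270.6 and 263.5 in transplant replicates 1 to 3. Active replicates 1 and 3 had 119.5 and 106.2, and the columns numbered 6 held 350.9 in the sedentary-active table and 98.4 in the active-transplant table. The 3 groups were thus ordered without overlap, sedentary below active below transplant, once the sedentary-active column 6 is set aside. The mean was 4.25 times as high in transplant as in sedentary HSC (log2 difference 2.08 ± 0.16, SE, n = 3 and 3).

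Tlr1, the other partner of TLR2, was the lowest member per kb of exon in sedentary HSC. It had 37.6, 47.6 and 53.0 normalized counts in sedentary, 158.9 and 78.1 in active (replicates 1 and 3) and 199.1, 191.0 and 116.4 in transplant HSC. The 2 columns numbered 6 lay furthest apart for this gene, at 274.8 and 40.4, the first above every transplant library and the second within the sedentary range. Its mean was 3.67 times as high in transplant as in sedentary HSC (log2 difference 1.83 ± 0.29). At its lowest Tlr1 rested on 23 reads in a library, and Tlr6 on 33, so counting error is largest for this pair.

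Tlr2, the shared chain of both pairs, was the most abundant receptor per kb of exon. Its normalized counts were 1218, 1051 and 1571 in sedentary, 2277 and 1478 in active and 2543, 2454 and 1762 in transplant HSC, with 3022 and 1212 in the columns numbered 6. Transplant libraries all lay above the sedentary ones, although replicate 3 of each group differed by less (1571 and 1762) than the others did. The mean was 1.76 times as high in transplant HSC (log2 difference 0.82 ± 0.24). The receptor chain common to both heterodimers was therefore already present in sedentary HSC at a much higher level per kb (425) than Tlr6 (17.6) or Tlr1 (13.8).

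For the lipopolysaccharide receptor, Tlr4 had 775.0, 678.8 and 1620.7 normalized counts in sedentary, 1568.6 and 1522.7 in active and 2596.9, 2358.5 and 2114.0 in transplant HSC. Sedentary replicate 3 stood at the level of the active libraries, and all transplant libraries stood above both. The log2 difference of transplant from sedentary was 1.31 ± 0.40, and the columns numbered 6 held 2924.3 and 1100.0.

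Cd14, which hands lipopolysaccharide to TLR4 and lies on the minus strand of chromosome 18 (36725067 to 36726798), varied widely between replicates. It had 282.9, 266.2 and 602.2 normalized counts in sedentary, 812.4 and 467.2 in active and 1892.2, 1202.5 and 473.1 in transplant HSC, with 2270.4 and 608.0 in the columns numbered 6. Transplant replicate 3 lay below sedentary replicate 3, so the groups overlapped, while the other two transplant libraries exceeded every sedentary one. The log2 difference was 1.52 ± 0.70 with all libraries and 2.45 ± 0.33 over replicates 1 and 2. Ly96, the MD-2 chain that completes the TLR4 complex, was low, with 19.2 ± 3.29 normalized counts in sedentary and 12.5 ± 3.05 in transplant HSC (SD, n = 3; limma log2 difference -0.60, adjusted p = 0.124).

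Of the endosomal receptors, Tlr7 had 147.1, 245.1 and 693.7 normalized counts in sedentary, 311.8 and 426.3 in active and 895.3, 622.1 and 215.7 in transplant HSC. Sedentary HSC lay below transplant HSC in replicates 1 and 2 and above them in replicate 3, and the groups overlapped. Its log2 difference of 0.75 ± 0.90 between transplant and sedentary HSC was smaller than its standard error, and over replicates 1 and 2 it was 1.97 ± 0.45. The columns numbered 6 held 1061.2 and 415.2.

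Tlr9, the CpG DNA receptor, had a different order of groups. Normalized counts of Tlr9 were 99.7, 102.3 and 141.4 in sedentary, 234.2 and 183.8 in active and 159.6, 144.5 and 120.5 in transplant HSC. Active replicates 1 and 3 lay above every sedentary and every transplant library, and sedentary and transplant libraries overlapped (log2 difference 0.31 ± 0.20). The columns numbered 6 held 327.0 and 117.3, so the second did not share that high level. Unc93b1, which carries endosomal receptors to their compartment, had 1736 ± 244 normalized counts in sedentary and 2425 ± 16.8 in transplant HSC (SD, n = 3; limma log2 difference 0.49, adjusted p = 0.0669).

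Myd88 was by far the most abundant member per kb in both groups (1844 in sedentary and 1670 in transplant HSC) and differed little between groups. Its normalized counts were 4913, 4702 and 4632 in sedentary, 5011 and 4335 in active and 4558, 4697 and 3647 in transplant HSC. All groups overlapped, and even the columns numbered 6, at 5206 and 4675, differed by a ratio of only 1.11. The log2 difference of transplant from sedentary HSC was -0.15 ± 0.12.

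Both adaptors of the TRIF branch were higher in transplant than in sedentary HSC without overlap. Ticam1 had 564.1, 528.9 and 578.2 normalized counts in sedentary, 847.0 and 755.2 in active and 998.4, 893.9 and 936.1 in transplant HSC. Active replicates 1 and 3 lay between the other groups without overlap (log2 difference of transplant from sedentary 0.76 ± 0.06). The columns numbered 6 held 1002.0 and 556.7, the first at the transplant level and the second at the sedentary level. Ticam2, on the minus strand of chromosome 18 (46557291 to 46574533), had 462.7, 430.2 and 544.2 normalized counts in sedentary, 740.7 and 502.8 in active and 580.4, 695.6 and 686.0 in transplant HSC, a log2 difference of 0.45 ± 0.13. It was the member in which the columns numbered 6 were closest, at 567.9 and 521.7.

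**Figure D1:**
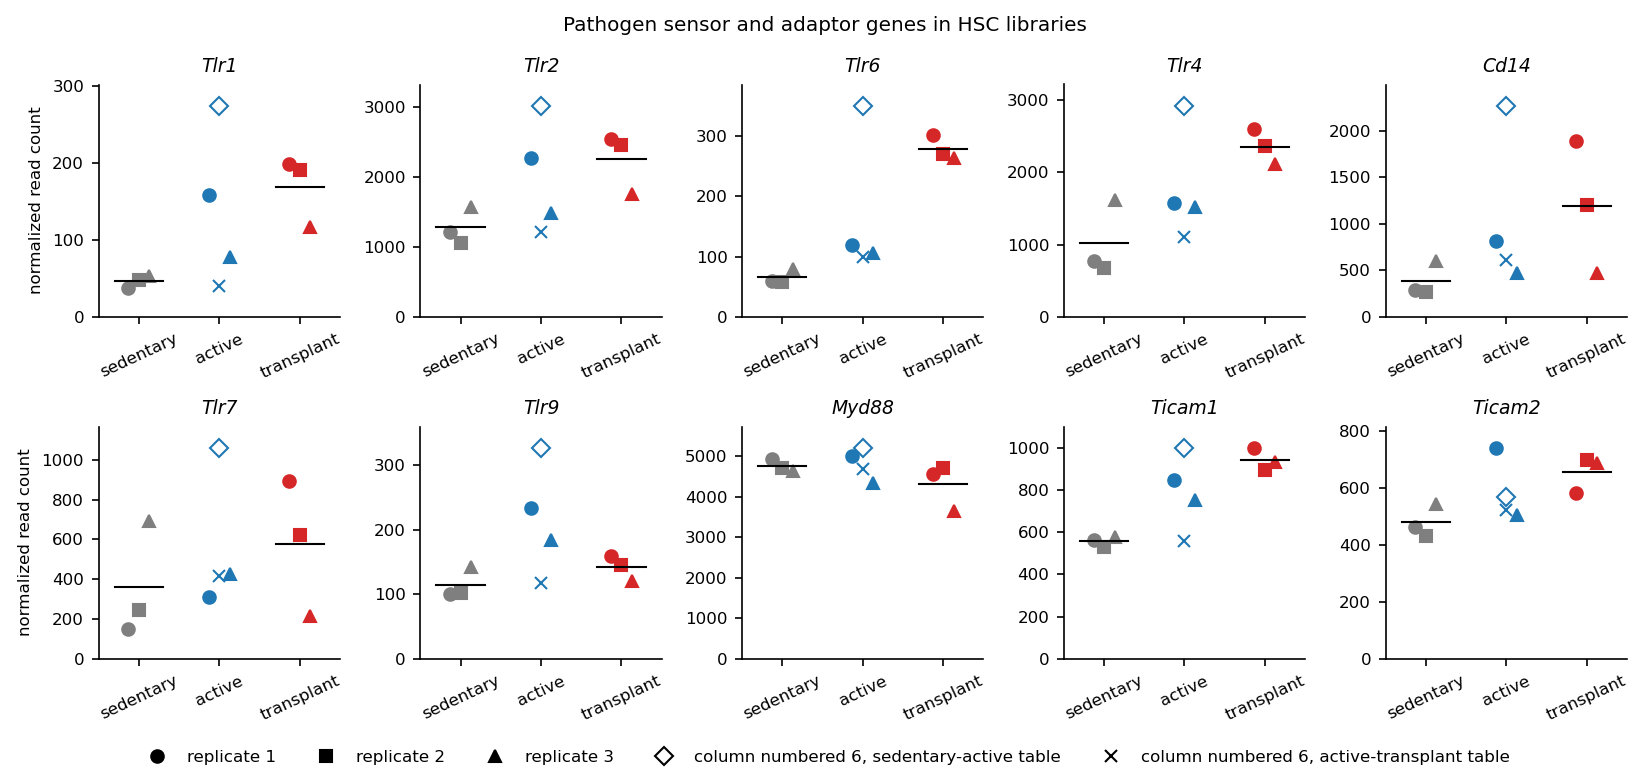
Normalized read counts (linear axis from 0) of the 10 genes in each HSC library; symbols mark the replicate, open diamonds and crosses the columns numbered 6 of the sedentary-active and the active-transplant table, and lines the sedentary and transplant means of 3 libraries. Tlr6 and Ticam1 step up from sedentary to active to transplant libraries apart from the columns numbered 6, Tlr9 is highest in active libraries, and Myd88 stays between 3647 and 5206.

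The order of levels per kb of exon was mostly shared by the groups. In sedentary HSC the order was Myd88, Tlr2, Cd14, Ticam1, Tlr4, Tlr7, Ticam2, Tlr9, Tlr6 and Tlr1. The ranges of the neighbours Cd14 (154 to 348 per kb), Ticam1 (177 to 193) and Tlr4 (122 to 292) overlapped, as did those of Tlr4 with Tlr7, of Tlr7 with Ticam2 and of Tlr6 with Tlr1. In transplant HSC Tlr4 (424 ± 43.5 per kb) stood above Ticam1 (315 ± 17.6 per kb) with ranges apart, and Tlr6 (74.8 ± 5.52 per kb) stood above Tlr9 (40.7 ± 5.66 per kb). Tlr1 (50.5 ± 13.6 per kb) overlapped Tlr9 there, whereas in sedentary HSC every library had less Tlr1 (11.2 to 15.8 per kb) than Tlr9 (28.7 to 40.7 per kb).

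Active HSC compared with sedentary HSC addressed the effect of physical activity at week 12. With the column numbered 6 of the table's own, all 10 genes had a higher mean in active HSC, with a median log2 difference of 0.92 against 0.01 for all genes. Tlr1, Tlr6, Tlr9 and Ticam1 did not overlap between the groups, 4 of 10 genes against 10.4% of all genes. With the column of the other table in its place the median was 0.46, and Tlr6 alone kept a gap (1 of 10 against 3.04% of all genes). With neither column the same 4 genes as in the first case did not overlap (background 12.8%), with log2 differences of 1.27 ± 0.53 for Tlr1, 0.78 ± 0.17 for Tlr6, 0.87 ± 0.24 for Tlr9 and 0.52 ± 0.09 for Ticam1 (active replicates 1 and 3 against 3 sedentary). The count of 4 became 9 without sedentary replicate 3 (22.1% of all genes) and 8 without active replicate 3 (21.3% of all genes), comparisons of fewer libraries in which overlap is less likely. Myd88 differed by 0.03 with its own column 6 and by -0.03 with neither column.

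In transplant HSC compared with active HSC, which share active and transplant libraries with the comparisons above, Tlr6 had the largest difference of the 10 genes with the table's own column numbered 6 (1.36 ± 0.10 on the log2 scale) and with neither column (1.30 ± 0.10). With the other column it was 0.75 ± 0.55, which was smaller in size than that of Tlr9. Tlr4, Tlr6 and Ticam1 did not overlap between the groups with the table's own column, 3 of 10 genes against 13.2% of all genes. The same 3 did not overlap with neither column (background 15%), with 0.60 ± 0.09 for Tlr4 and 0.24 ± 0.09 for Ticam1. With the column of the other table no gene was higher without overlap (background 2.65%), since that column lay above all 3 transplant libraries in 9 of the 10 genes. The count of 3 became 6 without active replicate 1 (22.8% of all genes) and 7 without transplant replicate 3 (23.1% of all genes). Libraries with the same number deviated together in this comparison. Within the 3 same-numbered pairs, Tlr1, Tlr2, Tlr4, Tlr6, Cd14 and Ticam1 were higher in the transplant library every time, 6 of 10 genes against 24.6% of all genes. With the other column numbered 6 this was 0 of 10 genes against 10.1% of all genes.

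Tlr9 went the other way in transplant against active HSC. Its mean was lower in transplant HSC by 0.29 ± 0.31 with the table's own column, which overlapped. With neither column it was lower without overlap, at -0.56 ± 0.21 (1 of 10 genes against 14.5% of all genes). With the other column it was also lower without overlap, at -0.78 ± 0.27 (background 3.45%). Transplant HSC thus had Tlr9 counts that overlapped those of sedentary HSC, while their Tlr6 counts lay above those of active replicates 1 and 3.

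**Figure D2:**
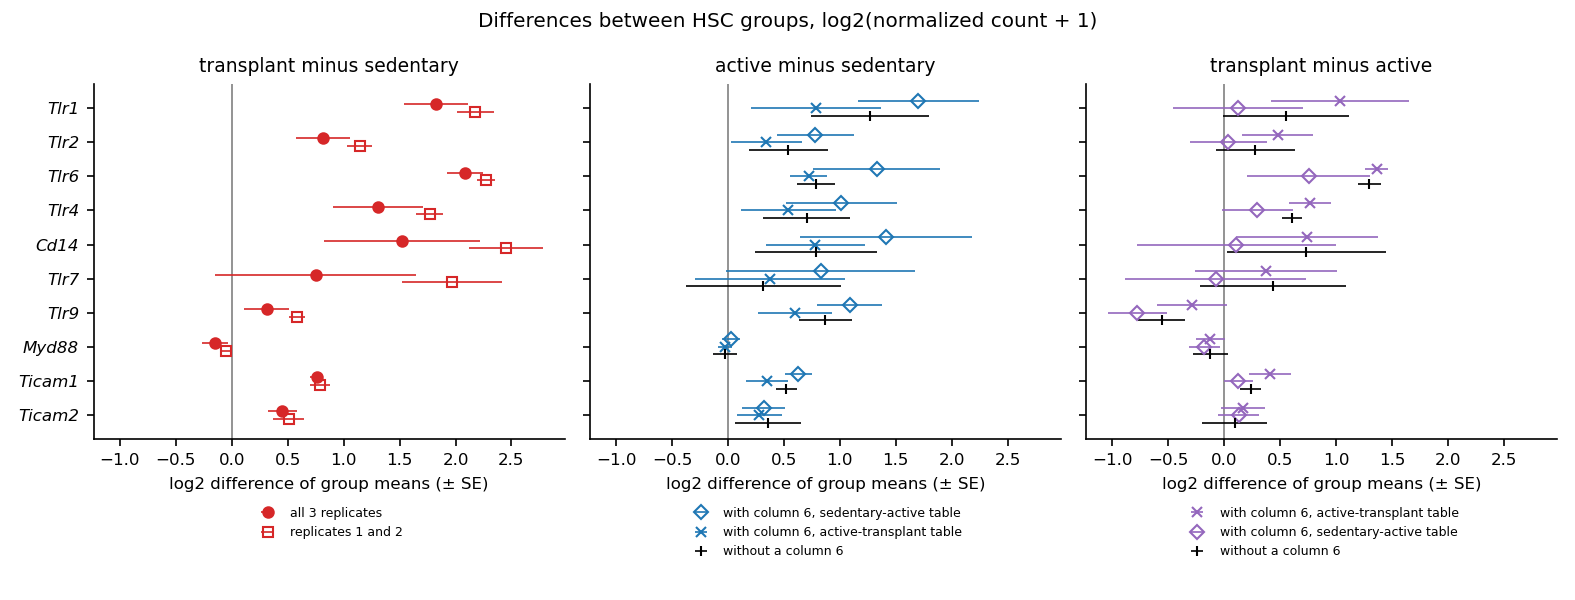
Log2 differences of group means (points) with standard errors (bars) for the 10 genes in 3 comparisons of HSC groups; squares in the first panel use replicates 1 and 2 only, diamonds the column numbered 6 of the sedentary-active table, crosses that of the active-transplant table and black ticks neither. The choice of column moves Tlr1 from 0.79 to 1.70 in active against sedentary HSC, while Myd88 stays near 0 in every panel.

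The column numbered 6 of the sedentary-active table was above every sedentary library in 10 of 10 genes and above every transplant library in 9, with Ticam2 below them. The column of the active-transplant table was within the sedentary range in 8 genes and above it in Tlr6 and Cd14. It lay below every transplant library in 7 genes. The first column was higher than the second in all 10 genes, by a ratio of 1.09 for Ticam2 to 6.80 for Tlr1.

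Replicate 3 of each group, the deep libraries with a letter in their names, differed from replicates 1 and 2 in how far the groups stood apart. Over replicates 1 and 2 alone 9 of the 10 genes were higher in transplant than in sedentary HSC without overlap, against 35.6% of all genes. Myd88 hardly differed there (log2 difference -0.05), with replicate 2 at 4697 in transplant and 4702 in sedentary HSC. Between the replicate 3 libraries Tlr7, Tlr9, Cd14 and Myd88 were lower in transplant HSC, and Tlr1, Tlr2, Tlr4, Tlr6, Ticam1 and Ticam2 were higher.

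Summed counts of marker genes of other blood cells also differed between the groups, and their part in the differences of the 10 genes was not tested. The summed normalized count of neutrophil markers (9 of 10 listed, Ly6g not listed) was 3401 to 3930 in sedentary, 5056 to 15823 in active replicates 1 and 3 and 29429 to 33296 in transplant HSC. It was 122251 in the column numbered 6 of the sedentary-active table and 3706 in that of the active-transplant table. Retnlg, a gene of mature neutrophils, was at 0 in all 3 sedentary libraries and at 1.63 to 7.35 in the transplant libraries, where S100a8 was at 5413 to 7177. Myeloid progenitor markers (8 of 8, such as Mpo and Elane) summed to 94423 to 131979 in sedentary and 309381 to 400732 in transplant HSC, mostly Mpo. Among them Csf3r overlapped, at 2796, 3142 and 2493 in sedentary and 2478, 2862 and 3879 in transplant HSC. Monocyte and macrophage markers (9 of 10) summed to 21083 to 23565 and 47469 to 87038, and dendritic cell markers (6 of 7) to 6170 to 6918 and 2727 to 2932. Against the monocyte sum, Ccr2 stood at 15830, 14396 and 10410 in sedentary and at 6109, 7196 and 10954 in transplant HSC. Among dendritic cell markers Flt3 was at 2371, 2687 and 2395 in sedentary and 120, 80.8 and 258 in transplant HSC. Clec9a went the other way, from 0, 0 and 1.0 to 38.1, 19.6 and 8.2. Megakaryocyte and platelet markers (6 of 6) summed to 2111 to 3811 in sedentary and 8977 to 25984 in transplant HSC. B cell markers (3 of 7 listed, without Cd79a) summed to 197 to 252 in sedentary and 99.2 to 151 in transplant HSC, mostly Cd79b. Of the T and NK cell markers 2 of 8 were listed, Lck and Nkg7, which went opposite ways. Lck fell from 176.6, 186.9 and 286.9 normalized counts in sedentary to 111.6, 73.5 and 70.3 in transplant HSC. Nkg7 rose from 1344, 1338 and 1788 to 3170, 3145 and 3864 and made up most of their sum (1521 to 2074 and 3218 to 3934). Of the erythroid markers 4 of 6 were listed and summed to 143 to 182 in sedentary and 181 to 490 in transplant HSC. In bulk libraries a change in the share of cells of a type and a change in RNA per cell cannot be told apart.

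**Figure D3:**
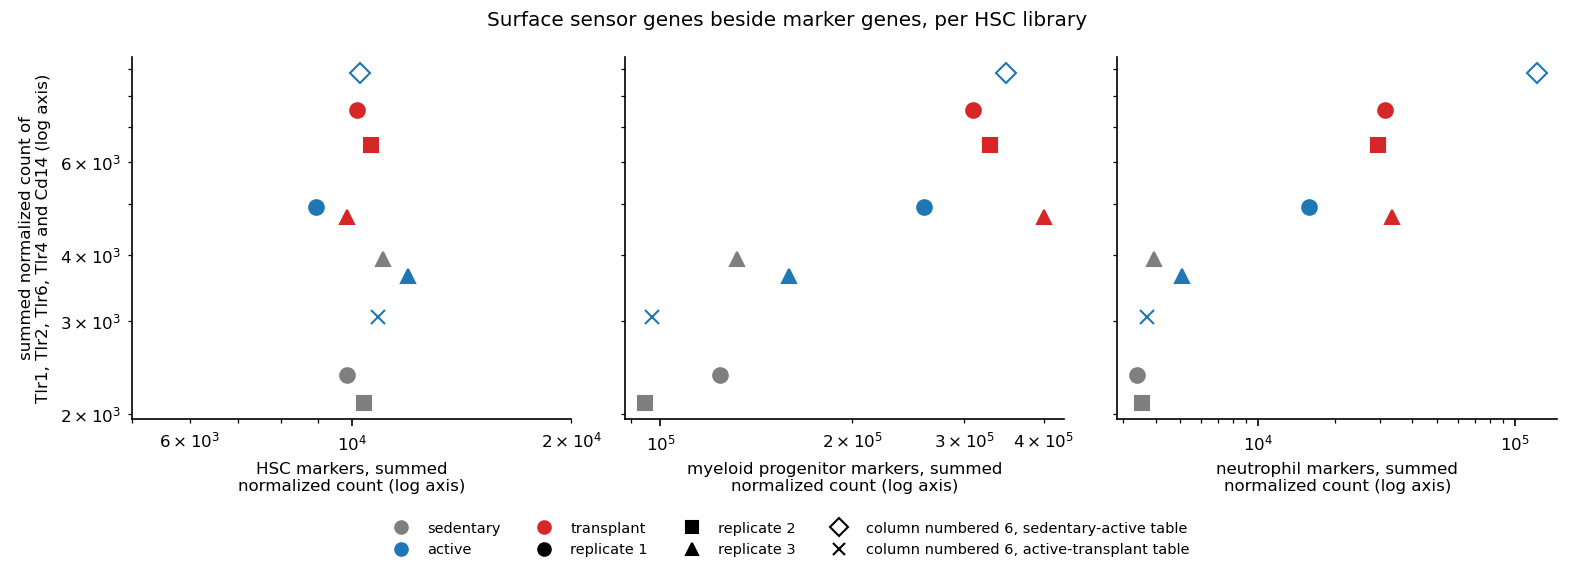
Summed normalized counts of Tlr1, Tlr2, Tlr6, Tlr4 and Cd14 (vertical log axis) against those of HSC, myeloid progenitor and neutrophil markers (horizontal log axes) in each HSC library, coloured by group. Summed HSC markers, mostly Kit, span 8928 to 11955, although single markers such as Hlf, Mecom and Slamf1 differ between sedentary and transplant HSC. The transplant libraries and the sedentary-active column 6 (diamond) lie at 29429 or more of neutrophil markers.

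The genes were not equally alike across libraries. Over the 8 HSC libraries other than the columns numbered 6, the correlation of each gene with the mean of all 10 was 0.97 for Tlr2, 0.96 for Cd14, 0.95 for Tlr1, 0.94 for Tlr4, and 0.89 for Tlr6 and Ticam1. It was lower for Ticam2 (0.77), Tlr7 (0.74) and Tlr9 (0.64), and -0.14 for Myd88. Each gene is part of that mean, and the libraries share the group differences. Among 10766 genes with a mean of at least 50, those most like the mean pattern were Snx32 (r = 0.995), Prune2 (0.991), Mkl1 (0.991), Aacs (0.991) and Steap4 (0.990). Prune2, for example, had mean normalized counts of 225 in sedentary, 549 in active replicates 1 and 3 and 937 in transplant HSC. These correlations describe 8 libraries and carry no test.

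The rest of the pathway was counted with limma over all genes, with Benjamini-Hochberg adjusted p under 0.05 as the threshold. Between transplant and sedentary HSC, 19 of 82 other pathway genes tested passed, 17 of them higher and 2 lower in transplant HSC. That is 23.2% of the genes, against 11.7% of all 13329 genes tested, and their median log2 difference was 0.30 against 0 for all genes. At an unadjusted p under 0.05 by limma there were 37 of the 82 (45.1%, against 31.7% of all genes). These lists were written with earlier results of the same libraries known. The count of 19 fell to 7 without sedentary replicate 1, 5 without sedentary replicate 2, 6 without transplant replicate 1 and 4 without transplant replicate 2. Tlr13, Ikbke, Irf8 and Tmem173 passed with any 1 library left out, and the other 15 did not pass in at least 1 of these 6 fits.

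Other receptors and accessory proteins passed in 3 of 12 genes tested (25%, against 11.7% of all genes), all higher in transplant HSC. Tlr13, an endosomal receptor for bacterial ribosomal RNA, had 100.7, 94.5 and 133.3 normalized counts in sedentary and 367.3, 326.7 and 393.3 in transplant HSC. It rose by 1.73 ± 0.17 on the log2 scale (limma, adjusted p = 0.00908) and passed under all 15 alternatives run, with adjusted p from 5.84e-11 to 0.0471. Tlr8 and Lbp, the gene of the lipopolysaccharide binding protein, were the other two that passed (log2 differences 1.84 and 0.78, limma adjusted p 0.0223 and 0.0263), and each passed in 2 of the 6 fits with a library left out.

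Among adaptors and kinases 3 of 22 genes passed, all higher in transplant HSC. That was 13.6% of the list, close to the 11.7% of all genes. Ikbke, a kinase that acts on interferon regulatory factors, rose from 692 ± 130 to 2284 ± 395 normalized counts (SD, n = 3; log2 difference 1.72 ± 0.19, limma adjusted p = 0.0108). Irak2, a kinase recruited after MyD88, rose from 104 ± 11.6 to 317 ± 84.6 (log2 difference 1.57 ± 0.21, limma adjusted p = 0.0158). Irak2 did not pass without sedentary replicate 1 (limma adjusted p = 0.0618), sedentary replicate 2 (0.0680) or transplant replicate 2 (0.0569). Pik3ap1, an adaptor that links the receptors to phosphoinositide 3-kinase, rose by 0.79 ± 0.12 (limma adjusted p = 0.0195). Pik3ap1 did not pass without any 1 of sedentary replicates 1 and 2 and transplant replicates 1 and 2 (limma adjusted p 0.0646 to 0.0861). For the other 19 genes of this list, which include Irak1, Irak4, Traf6 and Tirap, the test was not passed. Their log2 differences lay between -0.55 for Sarm1 and 0.38 for Map3k8.

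Of 10 transcription factors tested, Irf8 fell and Atf3 rose (20% of the list, against 11.7% of all genes). Irf8, which directs monocyte and dendritic cell development, had 4064, 3887 and 3521 normalized counts in sedentary and 1151, 1493 and 1505 in transplant HSC (log2 difference -1.47 ± 0.15, limma adjusted p = 0.00917). Atf3, a stress-induced repressor of inflammatory genes, had a log2 difference of 1.48 (limma adjusted p = 0.0495) and passed in 0 of the 6 fits with a library left out (limma adjusted p 0.0642 to 0.133). The NF-kB subunit genes Rela (-0.06) and Nfkb1 (-0.15) did not pass. Of 11 inhibitors of the pathway 1 passed, Irak3 (9.09% of the list, against 11.7% of all genes). At an unadjusted p under 0.05 by limma there were 8 of the 11, against 31.7% of all genes. Log2 differences were positive in 10 of the 11, all but Sigirr (-0.40). Irak3 rose from 911 ± 235 to 2140 ± 261 normalized counts (log2 difference 1.26, limma adjusted p = 0.0234) and passed in 2 of the 6 fits with a library left out.

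Output genes that the pathway induces passed in 4 of 10 genes tested (40%, against 11.7% of all genes), Nos2, Il1a, Il1b and Il6. Il6 rose from 22.7, 31.5 and 30.2 normalized counts in sedentary to 137.4, 138.5 and 85.6 in transplant HSC (log2 difference 2.04 ± 0.24, limma adjusted p = 0.0120), and did not pass without transplant replicate 2 (limma adjusted p = 0.0511). The other 3 passed in 1 or 2 of the 6 fits with a library left out. Tnf, another output, was at 222 ± 21.6 and 272 ± 81.9 and did not pass (limma adjusted p = 0.556).

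Other pathogen sensors passed in 6 of 17 genes tested (35.3%, against 11.7% of all genes), 5 higher and 1 lower in transplant HSC. The higher ones were the formyl peptide receptor genes Fpr1 and Fpr2, the cytosolic sensor genes Nod2 and Nlrc4, and the beta-glucan receptor gene Clec7a, each of which passed in 1 to 3 of the 6 fits with a library left out. Tmem173, which encodes the DNA-sensing adaptor STING, fell from 6666, 6066 and 5714 to 2093, 2675 and 2582 normalized counts (log2 difference -1.33 ± 0.14, limma adjusted p = 0.0105). The RNA sensor genes Ddx58 and Ifih1 did not pass (limma adjusted p 0.0530 and 0.0864).

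**Figure D4:**
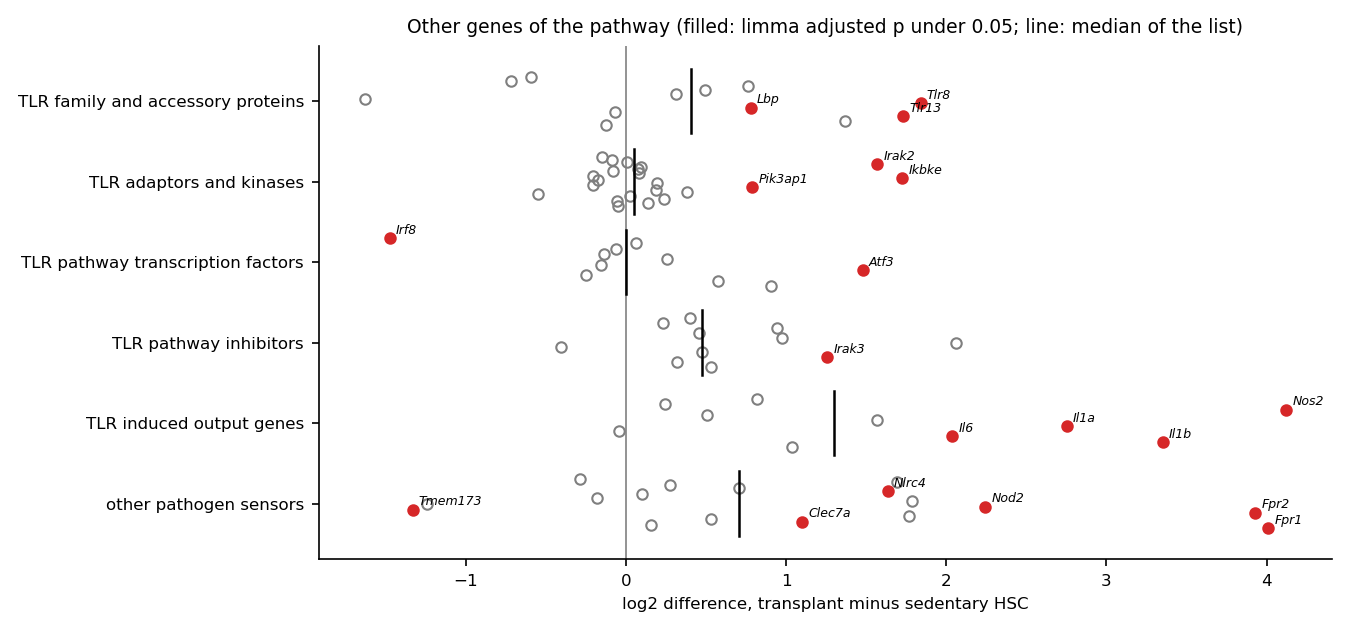
Log2 difference between transplant and sedentary HSC (horizontal axis) of 82 other pathway genes grouped by role; filled points passed limma at an adjusted p under 0.05, open points did not, and vertical lines mark each list's median. Adaptors and kinases that did not pass lie between -0.55 (Sarm1) and 0.38 (Map3k8). Output genes have the median furthest to the right, and Irf8 and Tmem173 are the genes that passed on the left.

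In active against sedentary HSC limma called 0 of 83 pathway genes, where it called 0% of all 13513 genes. At an unadjusted p under 0.05 there were 17 of the 83 pathway genes by limma (9.27% of all genes) and 26 by edgeR's quasi-likelihood test (31.3%, against 12.7% of all genes), which also called 0 after adjustment. DESeq2 called 6 after adjustment, 7.23% of the list against 2.03% of all genes. The genes with the largest differences without overlap were Fpr2, with 6.0, 4.8 and 25.3 normalized counts in sedentary and 66.4, 120.9 and 27.6 in active HSC, and Il1b, with 23.8, 9.6 and 38.0 and then 93.7, 387.0 and 45.9. Their limma adjusted p was 0.475 for both, and the middle active value of each is the column numbered 6. In transplant against active HSC limma called 0 of 84 pathway genes, against 0.0513% of all genes, with 19 at an unadjusted p under 0.05 (22.6%, against 17.8% of all genes). By edgeR 0 passed after adjustment and 20 before (23.8% against 20.2% of all genes), and by DESeq2 15 passed after adjustment (17.9% against 8.32% of all genes). The largest differences without overlap were those of Fpr1, at 8.7 ± 5.2 and 46.7 ± 15.5 normalized counts, and Fpr2, at 39.2 ± 29.8 and 175 ± 62.6 (SD, n = 3; limma adjusted p 0.179 and 0.199).

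In the mammary tumours, which had no part in the choice of the genes, the 10 genes were tested between active and sedentary mice. Limma called 0 of the 10 at week 12, where it called 0.517% of 19162 genes, and 1 was at an unadjusted p under 0.05. At week 18 it called 0 of the 10, where it called 0% of 18939 genes and 0 of the 10 were at an unadjusted p under 0.05. The difference between the weeks was called for 0 of the 10, against 0.0104% of 19241 genes, with 0 at an unadjusted p under 0.05. Tests with edgeR's quasi-likelihood method and DESeq2 also called 0 of the 10 at both weeks. The lowest adjusted p of any of the genes in all fits run was 0.403 at week 12, 0.702 at week 18 and 0.506 for the difference between weeks.

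Tlr6 was the gene with the lowest unadjusted p at week 12. It had 39.6, 37.9 and 58.9 normalized counts in sedentary and 69.2, 65.9 and 99.2 in active tumours, which did not overlap (log2 difference 0.77 ± 0.26, limma adjusted p = 0.970). At week 18 it had 91.9, 65.8 and 70.4 in sedentary and 86.3, 51.6 and 104.3 in active tumours (log2 difference 0.04 ± 0.31, limma adjusted p = 0.981). The difference between the weeks was -0.73 ± 0.42 (limma adjusted p = 0.770).

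The size of the Tlr1 and Tlr9 differences at week 12 depended on 1 tumour. Tlr1 had 132.0, 140.2 and 109.5 normalized counts in sedentary and 206.8, 161.8 and 1087.2 in active tumours, and Tlr9 had 141.6, 136.0 and 177.8 and then 167.6, 183.4 and 760.5. Active replicate 3 was high in both. Without that tumour the log2 difference of Tlr1 was 0.53 in place of 1.38 and that of Tlr9 was 0.22 in place of 0.92. For Tlr1 the other two active tumours still lay above every sedentary one (limma adjusted p 0.970 with that tumour and 0.949 without it), whereas Tlr9 overlapped with or without that tumour. The same tumour had a summed count of 16960 for 7 B cell markers, against 271 to 669 in the other five, and of 8867 for 8 T and NK cell markers, against 254 to 407; their part in these values was not tested.

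The remaining genes overlapped between active and sedentary tumours at both weeks. Cd14 was at 4758 ± 525 normalized counts in sedentary and 3940 ± 1111 in active tumours of week 12 (SD, n = 3). At week 18 it was at 1062.7, 4738.7 and 4400.6 in sedentary tumours, with replicate 1 far below the other two, and at 6857.9, 2494.2 and 4810.7 in active tumours. The same sedentary replicate 1 had a summed count of 8178 for 10 monocyte and macrophage markers, against 20132 and 20995 in the other sedentary tumours, and of 27393 for 7 neutrophil markers, against 91537 and 102386; their part in its Cd14 value was not tested. Tlr2 stood at 2362.6 in active replicate 1 of week 18 against 427.0 to 742.5 in the other five tumours of that week. Myd88 varied little, between 1532 and 2128 in the tumours of both weeks. The tumour tables were normalized separately from the HSC tables, so levels are not compared between them.

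**Figure D5:**
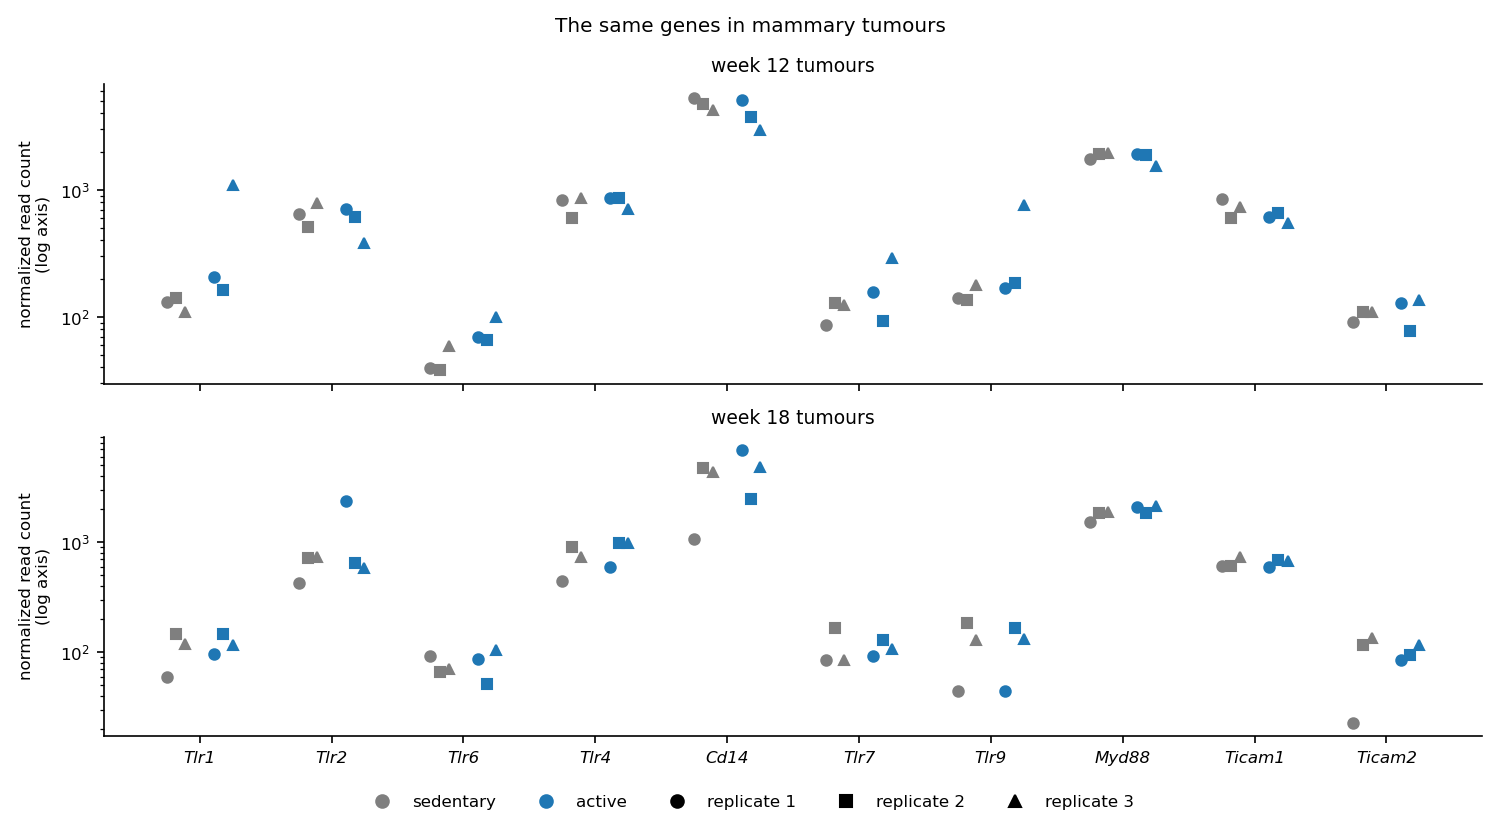
Normalized read counts (log axis) of the 10 genes in each mammary tumour, by week, activity group (colour) and replicate (symbol). Sedentary and active tumours overlap for most genes, and active replicate 3 of week 12 stands apart for Tlr1 at 1087.2 and for Tlr9 at 760.5.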

How the data were processed

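RNA was sequenced from poly(A) libraries made with a stranded kit, with HSC RNA from a micro-scale column kit and tumour RNA from TRIzol, per the labels' protocols. The authors deposited 1 table per comparison, made with DEBrowser per the labels. The deposited signal values had been normalized by the authors: each was a gene count divided by 1 factor per library, as the values show. The build was mm10, per the submitters' processing notes. The aligner, the counter and the annotation are not given in the sources used here. Whole reads came out for 100% of values in every column (tolerance 0.1 read), which gives the depth; reads carried no molecular identifiers.

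Recovered reads of the 10 HSC columns were rescaled together by the median of ratios over 13380 shared genes for the values of the 10 genes. In the comparison of transplant with sedentary HSC, which stand in separate tables, limma used the reads of these 6 libraries, scaled the same way; the other tests used the deposited values. The tests were limma 3.58.1 in R 4.3.3 on log2(value + 1), leaving out genes with both group means under 1, adjusted by Benjamini-Hochberg with a threshold of 0.05. Counts were tested with edgeR 4.0.16 and DESeq2 1.42.0 as alternatives, and the limma step was tested on simulated data. The 10 genes and all gene lists were chosen with earlier results of these data known. A marker of the B cell list is not reported here and was left out of its sums. Named pathway genes were, per HSC comparison, up to 5 per direction past the threshold with the smallest p and a mean of at least 20, or with none past it the 2 with the largest difference without overlap; other named pathway genes were chosen after their values were seen. Exon lengths and positions came from GENCODE M21 and start-site windows from RefSeq (GRCm38.p6).

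Same-numbered libraries deviated together, with correlations over 0.1 in every pair, in transplant against active HSC (0.105, 0.116 and 0.318) and in week 18 tumours (0.164, 0.159 and 0.139); this pairing comes from the replicate numbers of the labels.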

Additional observations from a re-analysis of the deposited data

How the results depend on the processing

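The count of pathway genes that passed between transplant and sedentary HSC, 19, was 32 with DESeq2 and 2 with the replicate number as a replicate block, and 4 to 19 with a library left out. The numbers are not shown to pair those libraries: deviations correlated by -0.113, 0.156 and 0.049, and 3 of 6 libraries correlated best with their own number. With the block Tlr13 and Nod2 passed (limma adjusted p 0.0471 for both), and the named Ikbke, Il6, Irak2, Pik3ap1, Irf8 and Tmem173 did not (0.0605 to 0.0936). The block changed no other count of calls among the 10 genes or the pathway genes. The count of 0 became 6 of 83 with DESeq2 in active against sedentary HSC. In transplant against active HSC it became 15 of 84 with DESeq2 and 0 to 1 with a library left out. Among all genes, limma called 7 between transplant and active HSC, 0 with the block, and DESeq2 1134; between active and sedentary HSC these were 0 and 274.

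Of the 10 genes, 4 were higher without overlap in active than in sedentary HSC; this was 10 over replicates 1 and 2 (30.8% of all genes), 1 with the other column numbered 6 (3.04%) and 4 to 9 with a library left out (12.5% to 22.1%). For transplant against active HSC the count of 3 was 7 (28.1% of all genes), 0 (2.65%) and 3 to 7 (15% to 23.1%). The log2 differences of the 10 genes kept their sign in all 110 values computed for transplant against sedentary HSC, of which 7 moved by more than the spread between replicates. In active against sedentary HSC 2 of 120 values changed sign, both of Myd88 (-0.03 each). In transplant against active HSC 2 of 120 changed sign, both of Tlr7 (-0.08 with the other column numbered 6 and -0.06 without transplant replicate 1). The cause of these changes was not tested. The comparisons with neither column numbered 6, the counts within same-numbered pairs and the rescaling of the 10 genes to each comparison's own table were chosen after seeing the data. Tlr1 and Tlr6, with as few as 23 and 33 reads in a library, have the largest counting error.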
